A study of Canis lupus familiaris with 12 samples.

Results

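Prostaglandin E2 (PGE2) is a short-range lipid signal, and 10 genes that make, carry, degrade or receive it were followed in Madin-Darby canine kidney (MDCK) cells grown as cysts or as flat sheets. They are the cyclooxygenases PTGS1 and PTGS2, the PGE2 synthases PTGES, PTGES2 and PTGES3, the receptors PTGER2, PTGER3 and PTGER4, the prostaglandin transporter SLCO2A1 and the degrading enzyme HPGD. All probe sets whose platform annotation names 1 of these genes and no other were used, which gave 15 probe sets for the 10 genes, of 15115 genes measured in all. The genes were chosen with their differences between cysts and sheets already known, so those differences are given as a description, without p-values.

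The 3D group held 6 arrays of MDCK II tet-off cells that had formed multicellular cysts inside type I collagen, and the 2D group, the control condition, held 6 arrays of the same cells grown as flat sheets in type I collagen culture. MDCK cells are a long-used dog line with features of the kidney tubule, and the tet-off background and the selection drug G418 were shared by both groups. All cultures were collected on day 8 by digesting the gel with collagenase. Each array received a pool of 4 RNA samples. Titles number the arrays as biological replicates but do not say how pools were drawn, so tests measure the spread between pools of 1 cell line.

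PGE2 begins with arachidonic acid, which phospholipases free from membranes. Cyclooxygenases turn it into prostaglandin H2, PGE2 synthases convert that intermediate, and PGE2 leaves the cell to act on nearby receptors. The receptors EP2 and EP4, encoded by PTGER2 and PTGER4, couple to the stimulatory G protein and raise cyclic AMP, while EP3, encoded by PTGER3, mostly couples to the inhibitory one. In the kidney PGE2 adjusts salt and water transport of the tubule, and in cyst cultures cyclic AMP is known to drive fluid secretion.

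The values are intensities on a linear scale, 1 per probe set and array, and were compared as log2(intensity + 1). A probe set's level depends on its own probes, so levels are compared between arrays and never between genes. As a measure of background, 59 controls that match no dog gene were used. Their 95th percentile on an array, called the control level below, lay between 5.59 and 5.71 on the log2 scale in 3D and between 5.67 and 5.91 in 2D. Of the 15 probe sets, 10 lay above the control level on all 12 arrays, and they measured 6 of the genes.

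Quality measures bear on all that follows. Median intensity lay between 89.9 and 93.7 on the 12 arrays. On the second principal component, which held 9.49% of the variance, 3D replicate 2 and 2D replicate 6 stood apart from the others, at -27.8 and -23.7. At its other end 2D replicate 3 lay highest, at 19.2, and that array was left out only by itself. The mean log2 ratio of 5-prime to 3-prime actin and GAPDH controls, a sign of RNA integrity, averaged -0.54 (SD 0.17) over the 6 cyst arrays and -0.92 (SD 0.14) over the 6 sheet arrays, and an exact two-sided permutation test gave p = 0.00866. This ratio differed between the groups in every comparison below, and its part in them was not tested beyond the values given with the ratio as a covariate. In that fit the SE was wider for every probe set of the genes followed, as for PTGS2, with 0.25 beside 0.15. A gene that does not pass there is therefore not shown to be unchanged. All 12 measured markers of kidney tubule epithelium, among them EPCAM, CDH16 and PAX8, lay above the control level on all arrays. Of these 12, 4 rose and 5 fell in limma at an adjusted p under 0.05, among them CDH1 by 1.02 and KRT8 by 0.64 upward and FXYD2 by -0.76, which the summed level does not show. The log2 of the summed marker intensity was 15.55 to 15.65 in 3D and 15.56 to 15.72 in 2D for epithelium. It was 8.91 to 9.07 in 3D and 9.03 to 9.24 in 2D for 8 fibroblast markers, of which COL1A2 was at or below the control level on all arrays. For 7 leukocyte markers it was 9.16 to 9.36 in 3D and 9.21 to 9.37 in 2D, with CD163 at or below the control level, and for 7 endothelial markers 8.96 to 9.12 in 3D and 9.12 to 9.23 in 2D, with PECAM1 at or below it. Above the control level on all arrays were 3 of the 8 fibroblast, 5 of the 7 leukocyte and 5 of the 7 endothelial markers. In limma at an adjusted p under 0.05, 2 fibroblast markers fell, 1 leukocyte marker rose and 3 fell, and 2 endothelial markers fell. The part of these marker levels in the results was not tested.

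Among the 10 genes, PTGS2 and PTGER2 gave more signal in 3D than in 2D, and PTGER4 gave less. PTGES2 was slightly lower in 3D, PTGES3 was nearly level, and the other genes lay near the control level. The fit across all 42924 probe sets called 3 of the 15 probe sets higher and 6 lower in 3D (limma, adjusted p under 0.05), where it called 38.7% of all probe sets, 16.7% higher and 22% lower. In 5 of the 15 the 3D and 2D values did not overlap, against 18.7% of all probe sets. As the genes were chosen on this contrast, nothing is read from these counts. An array measures the RNA of a whole culture, so fewer cells with a transcript and less of it per cell cannot be told apart.

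PTGS2, the inducible cyclooxygenase, showed the widest difference of the 10 genes. Its probe set had intensities of 1885 at the lowest, 2352 at the median and 2953 at the highest in the 6 arrays of 3D cysts, against 226, 267 and 430.4 in the 6 arrays of 2D sheets. Every cyst array was therefore above every sheet array, with a gap of 2.13 on the log2 scale between the dimmest 3D array and the brightest 2D array. Mean log2 values (± SD, 6 arrays each) were 11.22 ± 0.25 for cysts and 8.19 ± 0.37 for sheets, a difference of 3.03 (SE 0.15), or 8.18-fold. Of 15115 genes, 14 had a larger difference in that direction.

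The 2D arrays differed among themselves in PTGS2 more than in any other member, with an SD of 0.37. Replicates 2 and 5 had log2 values of 8.75 and 8.53, while the other 2D arrays lay between 7.82 and 8.16. In 3D the spread was smaller, from 10.88 in replicate 6 to 11.53 in replicate 4. Leaving out 2D replicate 6 and 3D replicate 2 together, which stood apart, gave 3.05, and the difference was 2.99 (SE 0.25) with the RNA control ratio as a covariate. Over all 22 alternatives it ranged between 2.96 and 3.14, as the plot of the members under each alternative shows.

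PTGS1, the constitutive cyclooxygenase, lay near the control level in both cultures. Its intensities were 48.0, 50.3 and 57.7 (lowest, median and highest) in 3D and 54.8, 59.5 and 67.3 in 2D. The groups overlapped, and 3 of the 6 values in 3D and 0 of the 6 in 2D were at or below the control level of their array. No array placed PTGS1 above the highest of the 59 controls. Its log2 difference of -0.23 (SE 0.06) was -0.08 (SE 0.09) with the RNA control ratio as a covariate. The control level itself was lower in the cyst arrays, with a mean of 5.66 in 3D and 5.76 in 2D. Of the 59 controls, 52 had a lower mean in 3D, and the median log2 change over all of them was -0.05. For the 8543 dimmest probe sets, which exceeded that level on no array, the median change was -0.07. The part of this background shift in the PTGS1 difference was not tested.

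**Figure D1:**
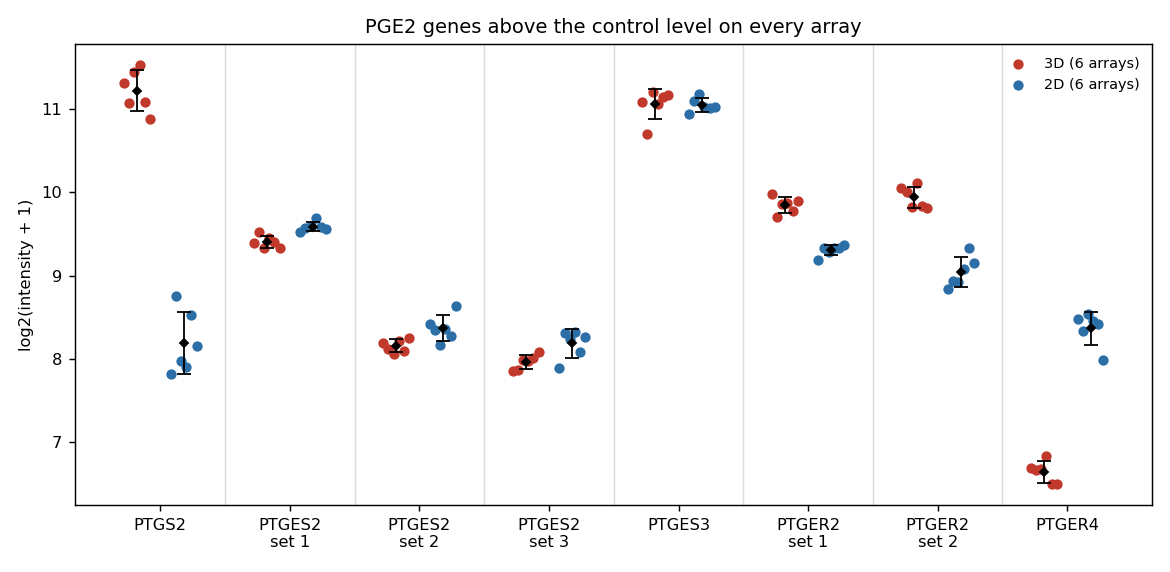
Log2(intensity + 1) of the 8 probe sets of PTGS2, PTGES2, PTGES3, PTGER2 and PTGER4 on each array, 3D left of 2D in each column. Points are arrays, diamonds and bars the mean and SD of 6 arrays, and sets are numbered by falling mean. PTGS2 and both PTGER2 probe sets lie higher in 3D without overlap, and PTGER4 lies lower without overlap.

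Of the 3 synthases, PTGES, the inducible microsomal enzyme often paired with PTGS2, gave little signal in either culture. The probe set with the highest mean had intensities of 57.1, 66.3 and 73.0 (lowest, median and highest) in 3D and 60.8, 64.4 and 69.7 in 2D. The groups overlapped, and the log2 difference was 0.02 (SE 0.06). The other probe sets differed by 0.11 (SE 0.07) and -0.03 (SE 0.05), again with overlap. Of these 3 probe sets, 1 was at or below the control level on all 12 arrays, and the others lay above the highest control on only 2 of 6 arrays in 3D and on 0 of 6 in 2D. Fitting the RNA control ratio as a covariate gave 0.13, 0.24 and -0.06.

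PTGES2, a membrane-associated synthase with constitutive expression, was slightly lower in 3D on all 3 of its probe sets. The brightest had log2 values of 9.33, 9.40 and 9.53 (lowest, median and highest) in 3D and 9.53, 9.58 and 9.69 in 2D. These groups did not overlap, but the gap between them was only 0.002 on the log2 scale. The differences were -0.18 (SE 0.05), -0.21 (SE 0.07) and -0.22 (SE 0.07), and the 2 dimmer probe sets overlapped between groups. Under that covariate they were -0.07, -0.19 and -0.27, and with quantile normalization -0.26, -0.31 and -0.32.

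PTGES3, the cytosolic synthase also known as the HSP90 co-chaperone p23, was bright and nearly level. Its log2 values were 10.70, 11.11 and 11.20 (lowest, median and highest) in 3D and 10.94, 11.02 and 11.18 in 2D, with overlapping groups and a difference of 0.01 (SE 0.08). The lowest value was that of 3D replicate 2, an array that stood apart, and the difference was 0.08 with that array and 2D replicate 6 left out. Under the RNA covariate it was -0.26 (SE 0.09), and with quantile normalization -0.05. Its sign was positive in 16 of 22 alternatives, so no direction is given.

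The within-array difference between PTGS2 and the brightest PTGES2 probe set, whose level has no meaning between probe sets, was 3.21 higher in 3D than in 2D on the log2 scale. Its 3D and 2D values did not overlap. This was fixed in advance, as each of these probe sets was already without overlap, in opposite directions, and nothing is read from it.

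**Figure D2:**
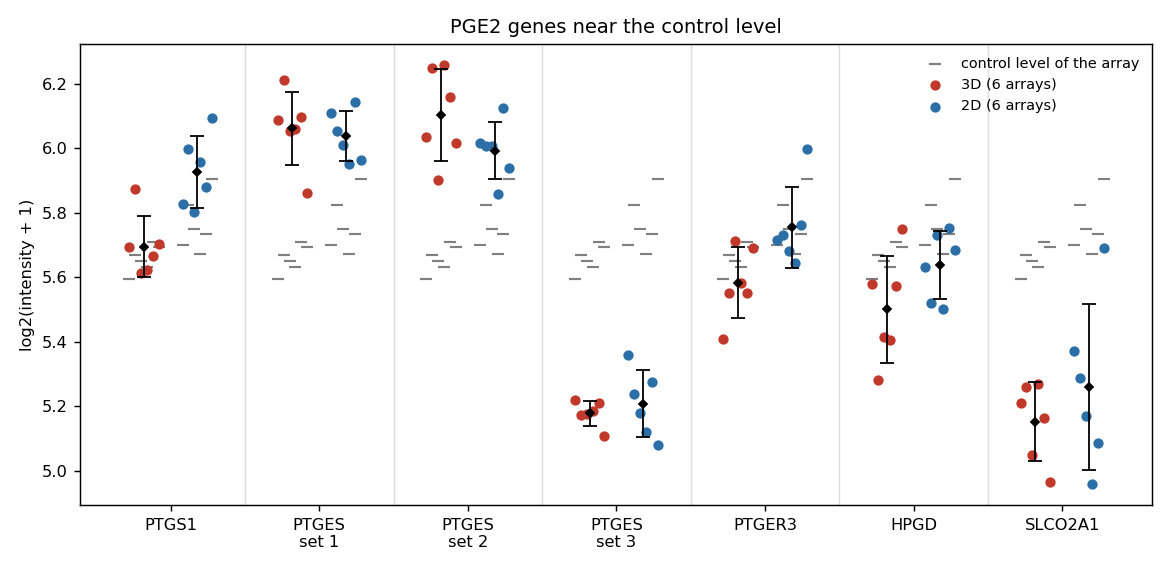
Log2(intensity + 1) of the 7 probe sets of PTGS1, PTGES, PTGER3, HPGD and SLCO2A1 on each array, 3D left of 2D, with grey dashes at the control level of each array. Diamonds and bars are the mean and SD of 6 arrays. The 3D and 2D values overlap in every column, and most points lie within the range of the dashes or below it, except those of the upper PTGES sets.

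The receptors that raise cyclic AMP went opposite ways. PTGER2, which encodes EP2, was higher in 3D on both of its probe sets. The probe set with the higher mean had intensities of 836, 934 and 1011 (lowest, median and highest) in 3D and 584, 645 and 659 in 2D. The other had 896, 967 and 1107 in 3D and 458, 513 and 641 in 2D. Neither pair of groups overlapped, so each cyst array was above each sheet array on both probe sets. The log2 differences were 0.54 (SE 0.05) and 0.90 (SE 0.08), or 1.46-fold and 1.86-fold, so the probe sets placed the size differently. The RNA covariate gave 0.48 and 1.12, and without both arrays that stood apart 0.58 and 0.91.

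PTGER4, which encodes EP4, was lower in 3D. Its probe set had intensities of 89.1, 101 and 113 (lowest, median and highest) in 3D, against 252, 345 and 372 in 2D. All 6 cyst arrays were below all 6 sheet arrays, with a gap of 1.15 on the log2 scale. Mean log2 values (± SD, 6 arrays each) were 6.64 ± 0.13 for cysts and 8.37 ± 0.20 for sheets, a difference of -1.72 (SE 0.09), so the signal was 3.30-fold higher in 2D. Only 6 of 15115 genes had a larger difference in that direction. Both groups lay above the control level on every array.

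The lowest 2D value of PTGER4, 7.98, was that of replicate 6, and the other 2D arrays lay between 8.33 and 8.54. Leaving out 2D replicate 6 and 3D replicate 2 together gave -1.80, and with the RNA control ratio as a covariate it was -1.78 (SE 0.14). Over 22 alternatives it ranged between -1.80 and -1.59, the smallest with a pseudocount of 16. The within-array difference between PTGER2 and PTGER4 was 2.26 higher in 3D than in 2D, and its values did not overlap between groups. That too was fixed in advance by the separate values of these genes, and nothing is read from it.

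PTGER3, which encodes EP3, could barely be seen. Its log2 values were 5.41, 5.57 and 5.71 (lowest, median and highest) in 3D and 5.64, 5.72 and 6.00 in 2D. They overlapped, and 5 of 6 arrays in 3D and 3 of 6 in 2D were at or below the control level. The highest value came from 2D replicate 6. No array placed PTGER3 above the highest control, and no fold change is given. PTGER1, which encodes EP1 and was singled out after its values were seen, had 7.02 ± 0.07 in 3D and 7.13 ± 0.08 in 2D, and its change of -0.11 (SE 0.05) was not called by limma (adjusted p = 0.104).

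Uptake and breakdown genes gave no usable signal. HPGD, the dehydrogenase that begins PGE2 inactivation, had log2 values of 5.28, 5.49 and 5.75 (lowest, median and highest) in 3D and 5.50, 5.66 and 5.75 in 2D, with 5 of 6 arrays of each group at or below the control level. SLCO2A1, the transporter that carries PGE2 into cells for degradation, had 4.97, 5.19 and 5.27 in 3D and 4.96, 5.23 and 5.69 in 2D, and was at or below the control level on all 12 arrays. The highest SLCO2A1 value was again that of 2D replicate 6. No fold change is given for either gene, as neither group stood above background.

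Other genes of the pathway were counted through 5 lists that hold none of the 10 genes, and these were tested. Of 108 measured genes, 23 rose and 26 fell in 3D (limma, adjusted p under 0.05), which is 45.4% called, where 42.7% of all genes were called (19.8% of all genes raised and 22.9% lowered). With centring on the median 24 rose and 20 fell, so which direction held more genes depends on the scaling. The median log2 fold change was -0.02, beside -0.05 over all genes. With the RNA control ratio as a covariate 15 rose and 8 fell, and with 2D replicate 6 and 3D replicate 2 left out 23 rose and 27 fell.

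**Figure D3:**
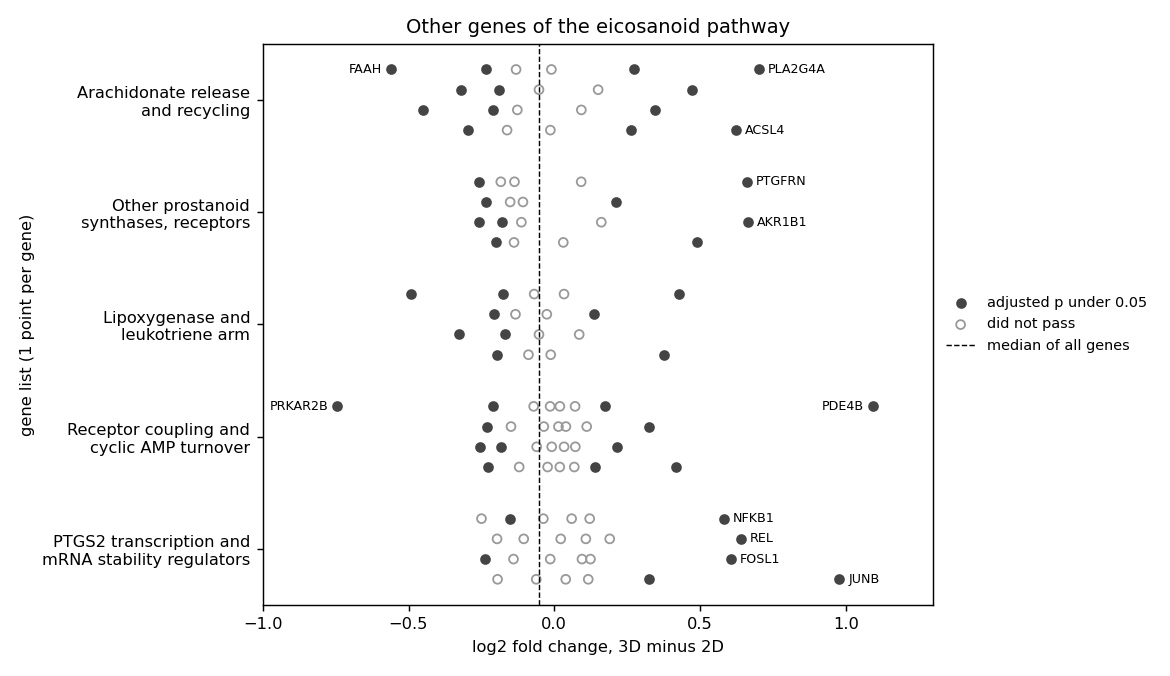
Log2 fold change, 3D minus 2D, of 1 probe set per gene in each of the 5 lists. Filled points passed limma at an adjusted p under 0.05, open points did not, the dashed line is the median of all genes, and vertical placement within a list has no meaning. PDE4B has the largest rise of the lists, at 1.09. PRKAR2B, the lowest point, was at or below the control level on all 6 arrays in 3D. Its place, at -0.75, is the plain difference and shows no size, and its bound is at least 1.40-fold lower in 3D.

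Upstream of the cyclooxygenases, genes of arachidonate release and recycling went both ways. PLA2G4A, the cytosolic phospholipase that frees arachidonic acid, rose, with 11.40 ± 0.05 in 3D and 10.70 ± 0.12 in 2D (log2 fold change 0.70, SE 0.06, limma adjusted p = 6.83e-08; 2 of its 3 probe sets rose and 0 fell). ACSL4, which attaches coenzyme A to arachidonate, rose by 0.62 (SE 0.11, limma adjusted p = 0.000309), and LPCAT3, which returns such fatty acids to phospholipids, rose by 0.47 (SE 0.04, limma adjusted p = 1.63e-07). FAAH, which hydrolyses fatty acid amides such as anandamide, had 9.68 ± 0.08 in 3D and 10.24 ± 0.05 in 2D and fell by 0.56 (SE 0.05, limma adjusted p = 1.45e-07). Of the 3 probe sets of FAAH, 2 fell and 0 rose. Of the 21 genes of this list, 6 rose and 7 fell, which is 61.9% called beside 42.7% of all genes, with a median of -0.05. Under the RNA covariate 3 rose and 3 fell, and ACSL4 no longer passed (0.31, SE 0.15, limma adjusted p = 0.177). With the filter on dim probe sets 4 fell.

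Among the other prostanoid genes, AKR1B1 and PTGR1 rose. AKR1B1, an aldo-keto reductase that can make prostaglandin F2α, had 9.58 ± 0.08 in 3D and 8.91 ± 0.10 in 2D (log2 fold change 0.66, SE 0.06, limma adjusted p = 1.23e-07). PTGR1, which reduces 15-keto prostaglandins, had 11.96 ± 0.04 in 3D and 11.47 ± 0.09 in 2D (0.49, SE 0.05, limma adjusted p = 7.13e-07). PTGFRN, a membrane protein named for its effect on the prostaglandin F receptor, rose by 0.66 (SE 0.08, limma adjusted p = 7.72e-06). The receptor gene PTGFR passed in the downward direction (limma adjusted p = 0.00342), but it lay at or below the control level on all arrays, with 5.12 ± 0.10 in 3D and 5.38 ± 0.11 in 2D, so no fold change is given. Of the 18 genes, 4 rose and 5 fell, which is 50% called beside 42.7% of all genes. At or below the control level on all 12 arrays were 4 of the 18. With the RNA control ratio as a covariate 3 rose and 0 fell in limma (4 and 2 at an unadjusted p under 0.05), and with the filter on dim probe sets 1 fell.

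The lipoxygenase and leukotriene list holds the lipoxygenases, which use the same fatty acid as cyclooxygenases, with enzymes and receptors of the leukotrienes made from it. ALOX15B, an arachidonate lipoxygenase, fell by 0.49 (SE 0.07, limma adjusted p = 3.32e-05), with 8.29 ± 0.15 in 3D and 8.78 ± 0.10 in 2D. CYSLTR1, a receptor for cysteinyl leukotrienes, fell by 0.33 (SE 0.07, limma adjusted p = 0.00161). It did not pass with the RNA control ratio as a covariate (-0.21, SE 0.11, limma adjusted p = 0.222). The enzymes GGT5 and DPEP1, which trim cysteinyl leukotrienes, rose by 0.43 (SE 0.07, limma adjusted p = 9.08e-05) and by 0.38 (SE 0.04, limma adjusted p = 5.99e-06), and GGT5 was at or below the control level on 3 of the 6 arrays in 2D. Of the 2 probe sets of DPEP1, 1 rose and 0 fell. Of 17 genes, 3 rose and 6 fell, which is 52.9% called beside 42.7% of all genes, and none of those called changed by at least 2-fold. The number that fell was 2 without 3D replicate 4, 3 without 3D replicate 6, 3 with quantile normalization, 3 with centring on the median and 1 with the RNA control ratio as a covariate.

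Downstream of the receptors, PDE4B, a phosphodiesterase that breaks down cyclic AMP, rose. It had 8.91 ± 0.13 in 3D and 7.82 ± 0.12 in 2D, without overlap (log2 fold change 1.09, SE 0.07, limma adjusted p = 3.42e-09; both of its probe sets rose), and it alone of the 108 genes passed with a change of at least 2-fold, where 1.85% of all genes did so upward and 0.271% downward. PRKAR2B, a regulatory subunit of protein kinase A, was at or below the control level on all 6 arrays in 3D and on 1 of 6 in 2D, so it was at least 1.40-fold lower in 3D (limma adjusted p = 0.000432). Of the 3 probe sets of PRKAR2B, 2 fell and 0 rose. GNAI2, an inhibitory G protein subunit, rose by 0.42 (SE 0.05, limma adjusted p = 8.22e-06), and CREB1, a transcription factor activated through cyclic AMP, rose by 0.33 (SE 0.06, limma adjusted p = 0.000474). GNAS, the stimulatory G protein subunit through which EP2 and EP4 act, was singled out after its values were seen, and its change of 0.04 (SE 0.05) was not called by limma (adjusted p = 0.501). Of 29 genes, 6 rose and 6 fell, which is 41.4% called beside 42.7% of all genes. The number that rose was 3 when either of 3D replicates 1 and 3, or 2D replicate 6, was left out. With the RNA control ratio as a covariate 3 fell, and PRKAR2B did not pass (limma adjusted p = 0.0913).

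Factors known to act on the PTGS2 promoter or transcript were the last list. JUNB, an AP-1 subunit, rose by 0.98 (SE 0.16, limma adjusted p = 0.000212), with 9.17 ± 0.32 in 3D and 8.19 ± 0.38 in 2D. The NF-kB subunit REL rose by 0.64 (SE 0.07, limma adjusted p = 1.51e-06) and NFKB1 by 0.58 (SE 0.04, limma adjusted p = 1.22e-08), although of the 3 probe sets of NFKB1 2 rose and 1 fell. FOSL1, another AP-1 subunit, had 6.76 ± 0.16 in 3D and 6.16 ± 0.15 in 2D and rose by 0.60 (SE 0.08, limma adjusted p = 1.93e-05). Of 24 genes, 5 rose and 2 fell, which is 29.2% called beside 42.7% of all genes, and 17 did not pass. Among those 17 were the AP-1 subunits FOS (-0.10, SE 0.22) and JUN (-0.25, SE 0.19) and the NF-kB subunit RELA (0.12, SE 0.06), singled out after their values were seen. JUNB did not pass with the RNA control ratio as a covariate (0.64, SE 0.25, limma adjusted p = 0.0925). The number that fell was 1 with that covariate, 1 with centring on the median, 5 with the replicate number as a block, and 1 without any 1 of 3D replicates 1, 5 and 6 and 2D replicates 1, 4 and 5.

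Genes with the most similar pattern over the 12 arrays were found by the root mean square of the difference in log2 value, each gene being taken relative to its 2D mean. Among 14401 genes, those nearest to PTGS2 were PRSS23, CDH17, ENTPD3, CSF2 and CTBS, at distances of 0.20, 0.21, 0.23, 0.24 and 0.24. Their differences between 3D and 2D lay between 2.86 for CSF2 and 2.98 for CTBS. CSF2 encodes a myeloid growth factor and CDH17 an intestinal-type cadherin. CTBS was at or below the control level on 3 of the 6 arrays in 2D. The plot of relative values by array shows each of them beside PTGS2.

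The genes nearest to PTGER4 were RASL11A, NTN4, DHDH, SLC16A12 and ARHGAP24, at distances of 0.13, 0.15, 0.20, 0.21 and 0.21. Their differences lay between -1.97 for ARHGAP24 and -1.71 for DHDH, and all lay above the control level on every array. NTN4 encodes a secreted netrin and SLC16A12 a monocarboxylate transporter of the plasma membrane. The distance is set mainly by the difference between the groups, and these genes are given as a description.

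**Figure D4:**
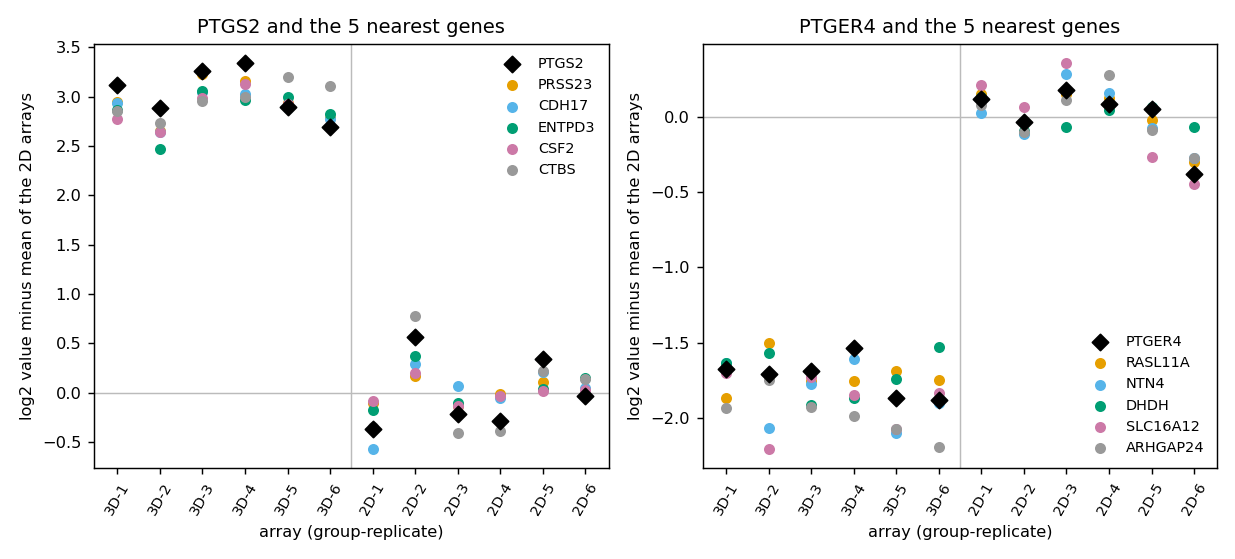
Log2 value of each array relative to the gene's mean over the 2D arrays, for PTGS2 and its 5 nearest genes (left) and PTGER4 and its 5 nearest genes (right), with 3D arrays left of 2D arrays. Black diamonds are PTGS2 or PTGER4. PTGS2 is highest among 2D arrays in replicate 2, and PTGER4 is lowest among 2D arrays in replicate 6.

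**Figure D5:**
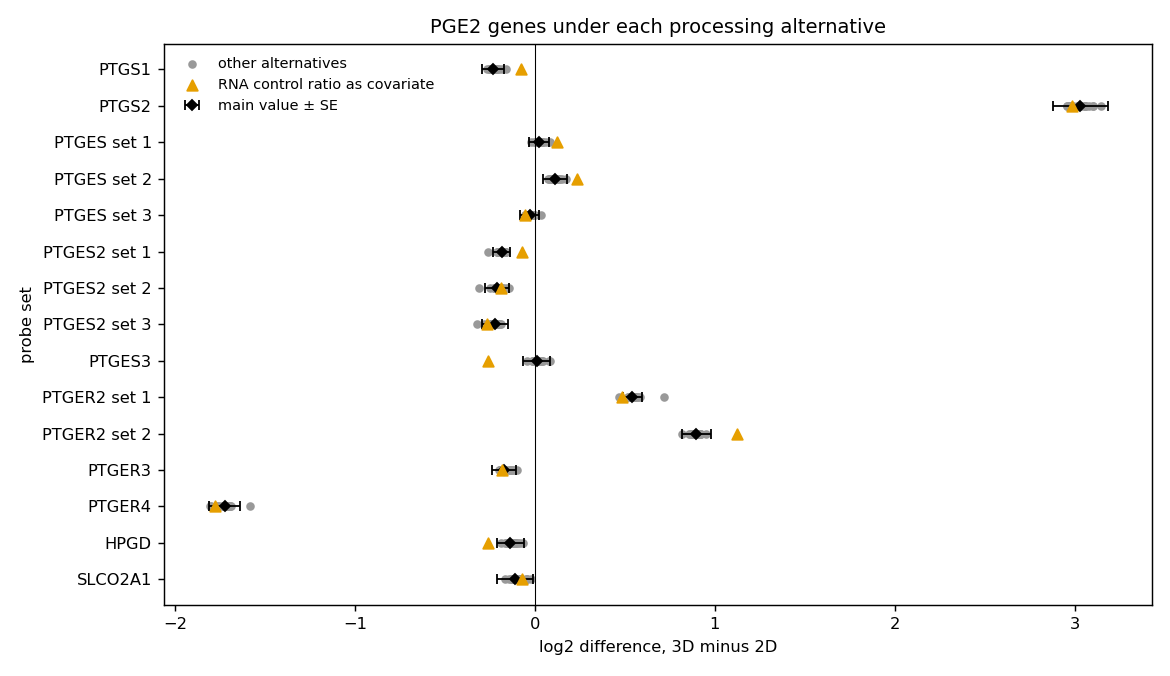
Log2 difference, 3D minus 2D, of the 15 probe sets. Diamonds and bars are the main value and its SE, grey points the other alternatives and triangles the fit with the RNA control ratio as a covariate. PTGS2, PTGER2 and PTGER4 keep their sign throughout, while PTGES3 and 2 of the 3 PTGES probe sets lie about 0 and change sign in some fits.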

How the data were processed

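Expression was measured on 12 one-colour Affymetrix dog arrays, 6 of 3D and 6 of 2D cultures. The deposited values are linear intensities over 43035 probe sets, and the submitters' processing notes list GCRMA, with no version. No later scaling is stated there. The values were not normalized further. Without 111 control probe sets, 42924 were tested, of which 29254 name 1 gene, and the probe set with the highest mean stands for a gene. Probe sets ending in _s_at or _a_at can hybridise with several transcripts or family members, so PTGS1, PTGS2, PTGER4 and SLCO2A1, measured by a single _s_at probe set each, and PTGER3, by an _a_at set, are uncertain in that respect.

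Groups were compared with limma 3.58.1 (lmFit and eBayes) in R 4.3.3, with group as the only term, two-sided, and Benjamini-Hochberg adjustment over all probe sets at 0.05. Precision is limited by having 6 arrays a group. The fit was tested on simulated data, with 50 changes planted at each size. It recovered 48% of log2 changes of 0.25, 94% of 0.5 and 100% of 1, and of its 185 calls 14 were false. The simulated probe sets varied independently, without shifts shared across an array, so the error rate in the real data is not shown by it.

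The genes and lists were chosen with earlier results of these data known. The text names every member, up to 4 called genes of each list, by size of change, and the 5 genes nearest to PTGS2 and to PTGER4. RefSeq (assembly UU_Cfam_GSD_1.0), used for names alone, holds the annotated gene ID of 27680 probe sets, and 0 symbols changed. Alternatives were quantile normalization, centring on the median, a pseudocount of 16, a filter of a log2 value above 6 on at least 6 arrays, trend and robust fitting, array weights, a replicate block, the RNA control ratio as a covariate, leaving out each array, and the mean over a gene's probe sets. Leaving out 2 arrays together was added after seeing the data. Figures were drawn with matplotlib 3.10.9.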

Additional observations from a re-analysis of the deposited data

Results flagged for a closer look

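An array far from the other 5 of its group was found in 6 of 92 groups of values examined, and chance gives about 1 in 20. In 3D, replicate 2 had the highest PTGS1 value (5.87, the others 5.61 to 5.70), the lowest PTGES3 value (10.70, the others 11.06 to 11.20) and the lowest ACSL4 value (8.98, the others 9.46 to 9.69). The same array had the lowest RNA control ratio of its group, -0.88, where the others lay between -0.55 and -0.40. In 2D, replicate 6 had the highest PTGER3 value, 6.00, the others lying between 5.64 and 5.76. NFKB1 was lowest in 3D replicate 6 at 9.96, with the others between 10.02 and 10.04.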

How the results depend on the processing

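PTGS2, both PTGER2 probe sets, PTGER4 and all PTGES2 probe sets kept the sign of their difference in every alternative run. So did PTGS1, PTGER3, HPGD, SLCO2A1 and 1 PTGES probe set, which lay near or below the control level. For such dim probe sets a kept sign is not read as a difference. Of 320 member values under alternatives, 312 stayed within 1 SD of the main value. Much of this count was fixed in advance. Leaving out a single array cannot move a group mean that far, and trend and robust fitting and the replicate block leave the difference unchanged. The cause of the changes below was not tested.

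With the RNA control ratio as a covariate, 4303 probe sets rose and 3624 fell (main 7171 and 9437) and 1907 genes rose and 1259 fell (main 2988 and 3465). Over all lists 15 rose and 8 fell. By list, 3 rose and 3 fell for arachidonate, 0 fell for the other prostanoid genes, 1 fell for lipoxygenases, 3 fell for receptor coupling and 1 fell for PTGS2 regulators. The share of raised calls among probe sets was 54.3% with that covariate, 51.9% with centring on the median and 49.6% with the filter on dim probe sets, beside 43.2% in the main analysis. Which direction held more calls therefore depends on these choices: 3205 genes rose and 2680 fell with that centring, 2926 and 2755 with the filter, and over all lists 24 and 20 with that centring. With the filter on dim probe sets 17 fell over all lists, 4 for arachidonate and 1 for the other prostanoid genes. For lipoxygenases 3 fell with quantile normalization and with centring on the median, and for PTGS2 regulators 1 fell with that centring.

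Leaving out each array, the number that fell ranged between 2 and 6 for lipoxygenases and between 1 and 2 for PTGS2 regulators, and the number that rose for receptor coupling between 3 and 6. With the replicate number as a block, 7402 probe sets rose and 9728 fell, and 5 PTGS2 regulators fell. The numbers were not treated as pairs. Deviations of same-numbered arrays correlated between 0.000836 and 0.360, above 0.1 in 3 of 6 pairs, and 1 array in 3D correlated best with its own number in 2D. The RNA control ratio differed by 0.37 over all pairs, by 0.59 for actin alone and by 0.15 for GAPDH alone (exact permutation p = 0.00866, 0.00866 and 0.0260). Single actin pairs differed by 0.44 and 0.74 and single GAPDH pairs by 0.06 and 0.24 (exact permutation p = 0.00866, 0.00433, 0.201 and 0.00866).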
